A study of Homo sapiens with 3 samples.

Results

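The mucin genes described here are MUC1, MUC2, MUC4, MUC5AC, MUC5B, MUC6, MUC12, MUC13, MUC17 and MUC20, chosen by name among the probes for transcripts on each array. The 10 genes had 24 probes, among 58201 probes and 43299 gene names in all. They were measured in HCT116, a human colorectal cancer cell line, on 3 arrays that held SMARCA4-KD1, SMARCA4-KD2 or NC cells. SMARCA4-KD1 and SMARCA4-KD2 cells received 1 of 2 small interfering RNAs against SMARCA4, the ATPase subunit of SWI/SNF chromatin remodelling complexes, and NC cells received a scrambled control siRNA. All 3 groups were transfected with Lipofectamine 3000. The question of the comparison was how knockdown of SMARCA4 changed transcript levels, and here those of the mucins.

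Mucins are large glycoproteins whose central stretches are rich in serine, threonine and proline, repeat in tandem and carry dense O-linked sugars. The secreted, gel-forming mucins MUC2, MUC5AC, MUC5B and MUC6 build mucus, and MUC2 made by goblet cells is the main one of the colon. The membrane mucins, which include MUC1, MUC4, MUC12, MUC13, MUC17 and MUC20, are anchored in the apical surface of epithelial cells and take part in signaling.

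The arrays gave 1 colour (Cy3), and each probe was read as a background-subtracted intensity, the processed signal. Between 45.7% and 47.3% of the probes were well above background on an array, as flagged by the extraction software, and the lowest such signal was 16.2 to 17.7. Differences from NC are given on the log2 scale after each array was scaled to its 75th percentile, and the error (±) beside a difference is the extraction software's own estimate for the spots, not a spread between replicates. Each condition had 1 array, and differences between 2 arrays therefore could not be checked in replicates. Both knockdown arrays shared a slide that did not hold NC, so slide and knockdown cannot be told apart. In the sample records the titles give SMARCA4 as the target, whereas the treatment field gives PRMT1. The SMARCA4 probe read 3960 on the SMARCA4-KD1 array, 4129 on the SMARCA4-KD2 array and 14026 on the NC array, which placed the SMARCA4 level at 26.6% and 28.8% of that in NC (log2 difference -1.91 ± 0.20 and -1.80 ± 0.20). Of 7 colonic epithelial markers 5 were well above background on all arrays (EPCAM, CDH1, KRT8, KRT18 and KRT19), and CDH17 and VIL1 were not on any.

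Sequences are given for part of the probes of the 5 mucin genes that were measured on all arrays, to show which stretch of the transcript a probe reads. The 2 MUC5AC probes given were not well above background, and the MUC5AC probe that was is named without its sequence. Sequences are written 5′ to 3′ as in the array files, with positions in hg19. The 3 MUC4 probes below lie in the tandem repeat of MUC4 on the minus strand of chromosome 3. Capitals mark bases in runs of at least 20 that are shared with another probe of the array.

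A_33_P3417281 (MUC4, chr3:195506310-195506369): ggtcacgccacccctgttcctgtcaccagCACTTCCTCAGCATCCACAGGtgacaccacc
A_24_P239176 (MUC4, chr3:195514760-195514819): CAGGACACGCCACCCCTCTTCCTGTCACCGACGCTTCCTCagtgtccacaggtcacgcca
A_24_P239177 (MUC4, chr3:195514780-195514839): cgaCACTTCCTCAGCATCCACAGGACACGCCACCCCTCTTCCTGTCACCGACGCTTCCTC

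The shared runs of these probes were with each other alone, and no probe of any other gene shared 20 bases with a mucin probe. A_24_P239176 and A_24_P239177 overlap by 40 bases, so they are not independent readings. Within each of the 3 probes, 10 or 11 of the 12 bases that can be compared at a distance of 48 bases were equal, as in a repeat of that length. The fourth MUC4 probe, A_24_P208825, lies outside these repeats at chr3:195474164-195474223.

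In the probes of the secreted mucins that follow, and in the probe of MUC1, capitals mark codons for serine, threonine or proline. They are read in the frame without a stop where the share of such codons is largest. This frame need not be the translated one.

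A_33_P3216570 (MUC5AC, no position in the array files): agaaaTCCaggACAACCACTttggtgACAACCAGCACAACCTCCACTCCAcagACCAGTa
A_33_P3216568 (MUC5AC, chr11:1161827-1161886): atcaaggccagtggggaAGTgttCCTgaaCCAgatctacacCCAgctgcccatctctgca
A_33_P3401571 (MUC2, chr11:1092337-1092396): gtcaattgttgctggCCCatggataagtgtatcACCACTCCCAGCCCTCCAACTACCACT
A_24_P88079 (MUC6, chr11:1015815-1015874): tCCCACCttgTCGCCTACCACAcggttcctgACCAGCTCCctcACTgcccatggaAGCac
A_23_P137856 (MUC1, chr1:155158652-155159726): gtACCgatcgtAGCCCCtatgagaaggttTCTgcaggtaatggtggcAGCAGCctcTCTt

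Across the array, 46871 probes had a frame without a stop, and in 1.78% of them at least 50% of the codons were for serine, threonine or proline. That held for 11 of the 23 mucin probes with such a frame, which came from 6 of the genes. The 2 MUC5AC probes above show the contrast within a gene, with 14 such codons of 19 in A_33_P3216570 and 4 of 19 in A_33_P3216568. In A_33_P3216568 another frame without a stop holds as many such codons, so the marked ones need not be those of the protein. The MUC1 probe spans 1075 bases of the genome with a length of 60 bases, so it crosses a splice junction.

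Only part of the family was measurable in HCT116 cells. MUC1, MUC2, MUC4, MUC5AC and MUC6 each had a probe well above background on all 3 arrays, and MUC20 had 1 on the SMARCA4-KD2 array alone. MUC5B, MUC12, MUC13 and MUC17 were not well above background on any array, and their 7 probes read between 3.32 and 6.86. These 4 genes have no fold change here, and their probes give only an upper limit, the lowest signal well above background. By probe, 9 of the 24 were well above background on all arrays, 2 on some and 13 on none.

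**Figure D1:**
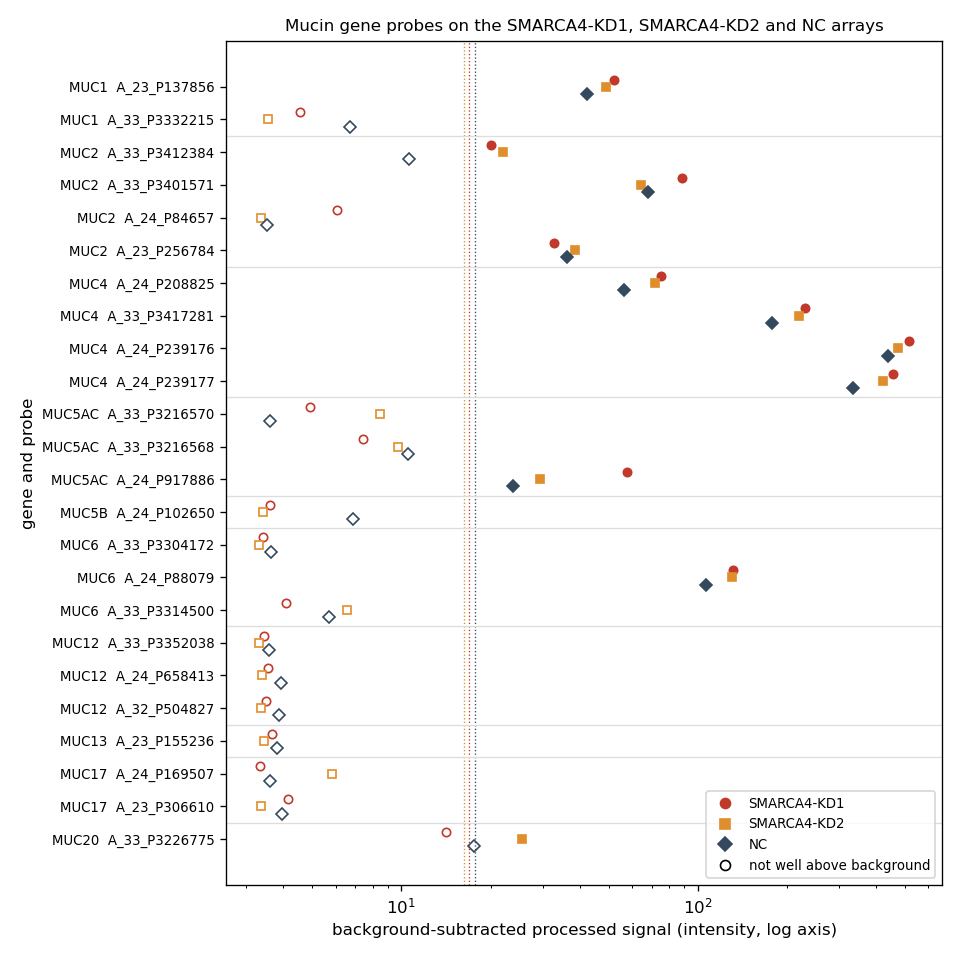
Processed signal (intensity, log axis) of all 24 mucin probes on the SMARCA4-KD1, SMARCA4-KD2 and NC arrays, with 1 point per array. Open points were not well above background, and dotted lines mark the lowest signal well above background on each array (16.9, 16.2 and 17.7). All 4 MUC4 probes sit to the right of these lines, and the MUC5AC probe A_24_P917886 is the one whose SMARCA4-KD1 point stands apart from the other two.

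Among the secreted mucins, the largest difference from NC was that of MUC5AC, a gel-forming mucin best known from the stomach and airway. Its probe A_24_P917886 read 57.8 on the SMARCA4-KD1 array, 29.5 on the SMARCA4-KD2 array and 23.9 on the NC array. The SMARCA4-KD1 array was the high one, and the SMARCA4-KD2 array lay close to NC. The level was 2.28-fold that of NC in SMARCA4-KD1 (log2 difference 1.19 ± 0.31) and 1.21-fold in SMARCA4-KD2 (0.27 ± 0.34). The knockdown arrays thus differed from each other by 0.92 ± 0.27 on the log2 scale. The other 2 MUC5AC probes were not well above background on any array and read 3.59 to 10.5, so the difference rests on 1 probe and 1 spot per array.

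The MUC5AC signal was low, and low signals varied most between the knockdown arrays. A standard deviation for a single knockdown array was estimated from the differences between SMARCA4-KD1 and SMARCA4-KD2. It was 0.12 on the log2 scale among 9563 genes with an NC signal of 500 or above. Among 2825 genes with an NC signal under 50 it was 0.29. The standard deviation of the differences themselves is larger than this estimate. In that low range, 9.77% of genes differed at least 1.5-fold between the knockdown arrays, and 2.97% rose in SMARCA4-KD1 by at least as much as MUC5AC. With normexp background correction, which adds an offset of 50 and so shrinks differences of dim probes, the MUC5AC difference in SMARCA4-KD1 was 0.45 and no longer reached 1.5-fold.

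MUC2 showed no common direction among its probes. The brightest, A_33_P3401571, read 88.2 on the SMARCA4-KD1 array, 64.2 on the SMARCA4-KD2 array and 67.9 on the NC array, a log2 difference of 0.29 ± 0.22 and -0.12 ± 0.23. The probe A_23_P256784 read 32.6, 38.5 and 36.2 in the same order, with differences of -0.24 ± 0.29 and 0.05 ± 0.28. In each knockdown these probes lay on opposite sides of NC. Another MUC2 probe, A_33_P3412384, read 20.1 and 22.0 in the knockdowns and 10.6 in NC, where it was not well above background, so the level was at least 1.07-fold and at least 1.22-fold higher. The fourth was not well above background on any array.

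MUC6, a mucin of gastric glands, read 131.3 on the SMARCA4-KD1 array, 130.1 on the SMARCA4-KD2 array and 106.9 on the NC array at A_24_P88079. Both knockdown arrays were higher than NC and nearly equal, with log2 differences of 0.21 ± 0.21 and 0.25 ± 0.21. The other 2 MUC6 probes were not well above background on any array.

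Among the membrane mucins, MUC4, a membrane-bound partner of the receptor ERBB2, was read by 4 probes that were all higher in both knockdowns than in NC. A_24_P239176 read 517.7 on the SMARCA4-KD1 array, 475.3 on the SMARCA4-KD2 array and 439.3 on the NC array, and the overlapping A_24_P239177 read 455.6, 421.9 and 333.4. A_33_P3417281 read 229.4, 219.9 and 178.4, and A_24_P208825, outside the repeats, read 75.4, 71.5 and 56.5. In each case the order was SMARCA4-KD1, SMARCA4-KD2, NC. The log2 difference from NC ranged from 0.15 to 0.37 over the 4 probes in SMARCA4-KD1 and from 0.08 to 0.31 in SMARCA4-KD2, each with an error of 0.20 to 0.23. No MUC4 probe reached 1.5-fold, and the brightest one, which stands for the gene below, gave the smallest differences of the 4.

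MUC1, which carries a cytoplasmic tail that takes part in signaling, read 52.2, 49.0 and 42.2 at A_23_P137856. The log2 difference was 0.22 ± 0.26 for SMARCA4-KD1 and 0.18 ± 0.26 for SMARCA4-KD2, both within the error. The second MUC1 probe read 3.55 to 6.71 and was not well above background. MUC20 read 14.1, 25.6 and 17.6. It was well above background in SMARCA4-KD2 alone, where it was at least 1.42-fold higher than NC, and no fold is given for SMARCA4-KD1 since neither array measured it. MUC20 passed the filter through the SMARCA4-KD2 array alone, so it could hardly come out other than higher there. With normexp background correction its log2 difference in SMARCA4-KD2 was 0.01.

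**Figure D2:**
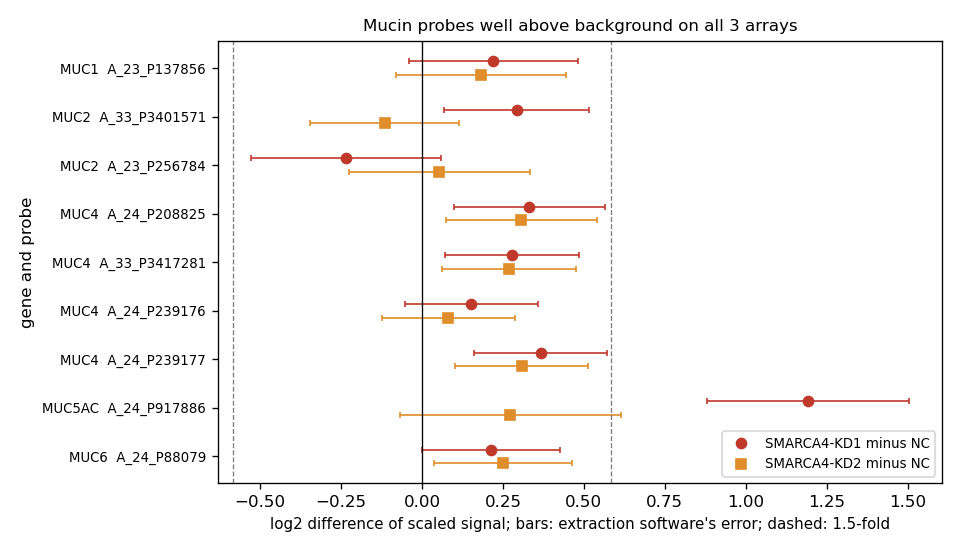
Log2 difference of scaled signal from NC for the 9 mucin probes well above background on all 3 arrays, in SMARCA4-KD1 (circles) and SMARCA4-KD2 (squares). Bars are the extraction software's error and dashed lines mark 1.5-fold. MUC5AC in SMARCA4-KD1 (1.19) is the one point beyond them, and the other points lie between -0.24 and 0.37.

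Over the 9 probes, 8 were higher than NC in SMARCA4-KD1 cells, 8 in SMARCA4-KD2 cells and 7 in both. These probes include all 4 of MUC4, some of which overlap, so they are not independent readings. Of the 19504 genes measured on all arrays, 51.5% were higher than NC in SMARCA4-KD1 and 53.8% in SMARCA4-KD2 by the brightest probe. By gene, with the brightest probe of each, 4 of the 5 genes measured on all arrays (MUC1, MUC4, MUC5AC and MUC6) were higher than NC in both knockdowns by any amount, as were 45.2% of the 19504 genes measured on all arrays. When the measured probes of MUC2 were averaged in place of taking the brightest, its differences were 0.05 and 0.07. That average includes A_33_P3412384, which passed the filter through the knockdown arrays alone, so that probe could hardly come out other than higher. With the brightest probe of each, the median log2 difference of the 5 genes was 0.22 for SMARCA4-KD1 and 0.18 for SMARCA4-KD2, against 0.02 and 0.04 over those 19504 genes. Of those genes, 9563 had an NC signal of 500 or above, where none of the 5 lay. With normexp background correction the differences were 0.10 and 0.08 for MUC1, 0.07 and -0.13 for MUC2, and 0.19 and 0.14 for MUC4. Those of MUC5AC were 0.45 and 0.07, and those of MUC6 0.08 and 0.11. Both comparisons use the same NC array, so they are not independent of each other.

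Of the 6 mucin genes measured on any array, 1 (MUC5AC) was at least 1.5-fold higher than NC in SMARCA4-KD1 and 0 were lower, where 11.2% of 22620 genes were higher and 12.2% lower. In SMARCA4-KD2, 0 were at least 1.5-fold higher or lower, against 10.1% of genes higher and 9.77% lower. In both knockdowns together the count was also 0 in either direction, against 6.36% of genes higher and 8.03% lower. Between SMARCA4-KD1 and SMARCA4-KD2, 1 of the 5 genes measured on all arrays (MUC5AC) was at least 1.5-fold apart, as were 2.8% of genes.

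With both knockdown arrays compared against NC in limma, which leaves 1 residual degree of freedom and assumes that the lone NC array varies like the knockdown arrays, 0 mucin genes had an adjusted p under 0.05. The same held for 0% of all 22620 genes, so the fit had no call to give at that filter. The mean log2 difference was 0.20 for MUC1, 0.09 for MUC2, 0.12 for MUC4, 0.73 for MUC5AC and 0.23 for MUC6. For MUC20 the fit gave 0.18, which is not a measured difference. Its values on the SMARCA4-KD1 and NC arrays were not well above background and had been raised to the lowest value that was. At an unadjusted p under 0.05 limma counted 0 mucin genes and 30.7% of all genes. When the fit was restricted to the 19504 genes measured on all arrays, 26.5% of which had an adjusted limma p under 0.05, the lowest among the mucins was 0.199 for MUC5AC.

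**Figure D3:**
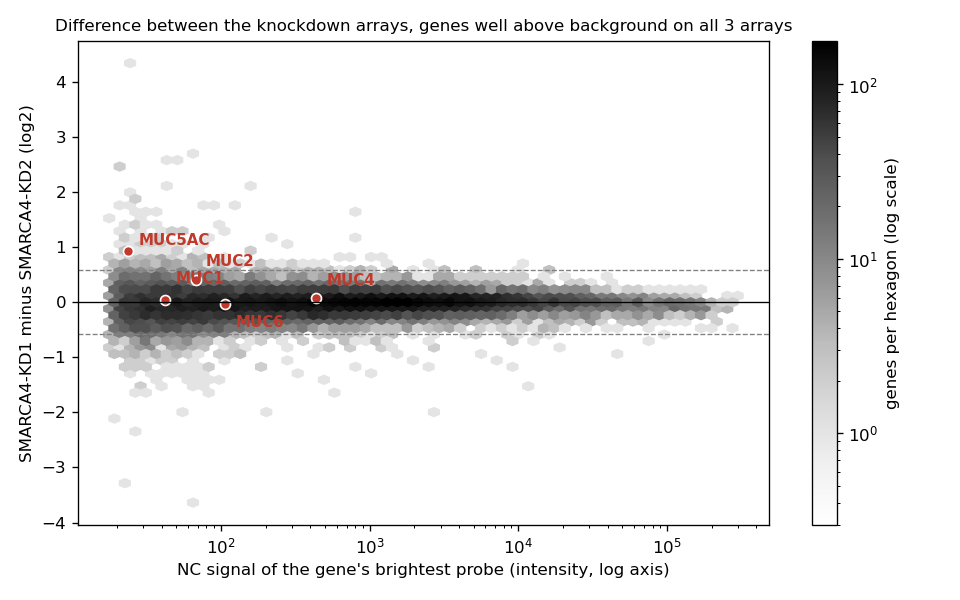
Difference between SMARCA4-KD1 and SMARCA4-KD2 (log2) against the NC signal (intensity, log axis) for the 19504 genes well above background on all arrays, with grey shade for the number of genes and red points for 5 mucin genes. Dashed lines mark 1.5-fold. MUC5AC (0.92) lies above the upper line at a low signal where genes are widely spread, and MUC1, MUC2, MUC4 and MUC6 lie between the lines.

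Several of the mucins lie near each other on the genome. MUC6, MUC2, MUC5AC and MUC5B lie within 268 kb on chromosome 11 by their probes, and of these MUC6 was similar in both knockdowns, MUC5AC was higher in SMARCA4-KD1, MUC2 had no common direction and MUC5B was not measured. MUC20 and MUC4 have probes 9.64 kb apart on chromosome 3, and MUC4 was well above background on all arrays while MUC20 was on 1. MUC12 and MUC17, with probes within 55.9 kb on chromosome 7, were both undetected. Distances are between probe positions in hg19.

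Among 16 other mucin and mucin-like genes, 14 had a probe and 7 were measured, of which 1 was at least 1.5-fold higher and 1 lower in both knockdowns (14.3% each way, against 6.36% and 8.03% of all genes). CD164, a sialomucin of the cell surface and endosomes, read 5234, 5631 and 3168 in SMARCA4-KD1, SMARCA4-KD2 and NC (1.56-fold and 1.74-fold higher). MCAM, a cell adhesion molecule also known as CD146 or MUC18, read 840.2, 767.0 and 1539, 1.94-fold and 2.05-fold lower. The list's median log2 difference was -0.15 for SMARCA4-KD1 and -0.08 for SMARCA4-KD2, against -0.0022 and 0.02 over all genes. Of its 6 genes measured on all arrays, 4 were lower than NC in both knockdowns by any amount and 2 were higher. Among all genes measured on all arrays 45.2% were higher in both, and the share lower is not given here. MUC3A, outside the rule for named genes, was among the 4 lower (-0.15 and -0.12). With the mean over its probes it was higher (0.39 and 0.30).

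Enzymes that build mucin-type O-linked sugars lay on both sides of NC. Of 31 such enzymes all had a probe and 23 were measured, with 3 at least 1.5-fold lower in both knockdowns and 0 higher (13% lower, against 8.03% of all genes). GCNT3, among these 3, passed the filter through the NC array alone, so it could hardly come out other than lower. The others were ST6GALNAC2 and GALNT3, among 22 enzymes measured on all arrays. Of the 19504 genes measured on all arrays, 1461 were at least 1.5-fold lower in both knockdowns. By any amount, 7 of the 22 enzymes were higher than NC in both knockdowns and 12 were lower. Among those 19504 genes 45.2% were higher in both, and the share lower is not given here. ST6GALNAC2, a sialyltransferase acting on the first GalNAc of the chain, read 196.6, 248.3 and 507.0, 2.73-fold and 2.09-fold lower. GALNT3, which adds that first GalNAc to serine or threonine, read 226.0, 219.1 and 352.3, 1.65-fold and 1.64-fold lower. GCNT3, the mucin-type branching enzyme, was well above background in NC alone at 27.2 and was at least 1.71-fold lower in both knockdowns. It falls outside the rule for named genes and was named after its values were seen, and with normexp background correction its log2 differences were -0.42 and -0.29, under 1.5-fold. The list's median log2 difference was -0.07 for SMARCA4-KD1 and -0.18 for SMARCA4-KD2, against -0.0022 and 0.02 over all genes.

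Goblet cell and secretory lineage genes were measured in part. Of 20 genes 13 were measured, 11 of them on all arrays, and 0 differed from NC at least 1.5-fold with 1 direction in both knockdowns, against 6.36% of all genes higher and 8.03% lower. Their median log2 difference was 0.19 for SMARCA4-KD1 and 0.10 for SMARCA4-KD2, against -0.0022 and 0.02 over all genes. The 7 genes not well above background on any array were ATOH1, which specifies the secretory lineage, and AGR2, AGR3, TFF3, CLCA1, ZG16 and SPINK4. The 11 measured on all arrays were SPDEF, GFI1, KLF4, FOXA3, CREB3L1, TFF1, FCGBP, RETNLB, REP15, SYTL2 and BEST2. As with MUC5AC, 1 gene of this list was high in SMARCA4-KD1 alone: ERN2, the endoplasmic reticulum stress sensor of mucus-secreting cells, read 127.7, 16.1 and 26.8. It was 4.50-fold higher than NC in SMARCA4-KD1 and at least 1.69-fold lower in SMARCA4-KD2. With normexp background correction its log2 difference was 0.98 in place of 2.17 for SMARCA4-KD1 and -0.18 for SMARCA4-KD2, the latter under 1.5-fold. The genes of this list were named after their values were seen.

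Of 20 transcription factors known to act on mucin promoters, 16 were measured, with 1 at least 1.5-fold higher in both knockdowns and 0 lower (6.25% higher, near the 6.36% of all genes). STAT3, a signal transducer that regulates several membrane mucin genes, read 628.1, 517.7 and 318.3, 1.86-fold and 1.59-fold higher. The median over the list was 0.01 and 0.02.

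Of 13 partners and sheddases of membrane mucins, 11 were measured, with 1 higher and 1 lower at least 1.5-fold in both knockdowns (9.09% each way, against 6.36% and 8.03% of all genes). SRC, a kinase that phosphorylates the MUC1 tail, read 791.0, 710.0 and 445.5, 1.67-fold and 1.56-fold higher. MET, the HGF receptor, read 25430, 23293 and 38279, 1.60-fold and 1.68-fold lower. The median over this list was 0.11 for SMARCA4-KD1 and -0.01 for SMARCA4-KD2.

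**Figure D4:**
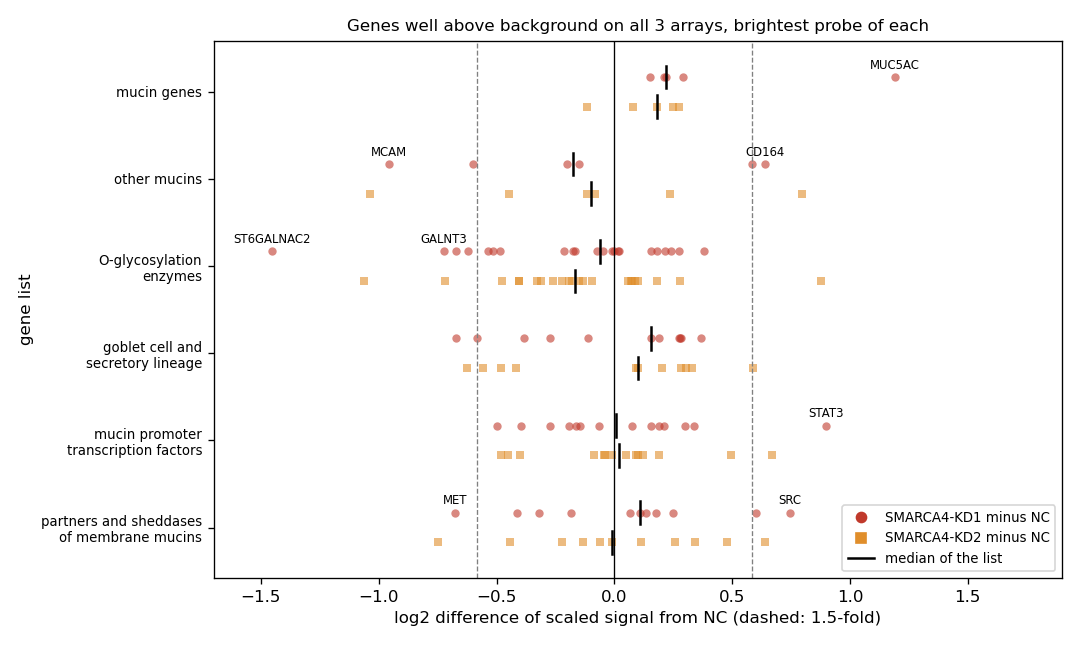
Log2 difference from NC of the genes of each list that were well above background on all 3 arrays, in SMARCA4-KD1 (circles) and SMARCA4-KD2 (squares), with a black tick at the list's median and dashed lines at 1.5-fold. In the 5 mucin genes, MUC5AC is beyond the line in SMARCA4-KD1 alone, whereas CD164, MCAM, ST6GALNAC2, GALNT3, STAT3, MET and SRC are beyond it in both knockdowns.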

How the data were processed

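Samples were grouped by the knockdown number in their treatment field. The authors deposited Agilent Feature Extraction 10.7.1.1 scanner files of SurePrint G3 Human arrays, in which intensity was background-subtracted and detrended but not normalized between arrays. They also deposited a series-level table of the same intensity, used as an alternative. Further columns of the deposited files, such as the well-above-background flag, and the probe sequences and hg19 positions were used as given.

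Control spots and outlier spots were left out, and repeated spots were averaged on the log2 scale. The 75th percentile of each array was subtracted, and a value not well above background was raised to the lowest one that was. A gene was represented by its brightest probe among those well above background on any array, which gave 22620 genes. Fold changes against an undetected value are limits. Calls were made at 1.5-fold without a test, and limma 3.58.1 (R 4.3.3, intensity trend, Benjamini-Hochberg adjustment) compared both knockdowns with NC. Python 3.11.15, numpy 2.4.6, pandas 2.3.3 and matplotlib 3.10.9 were used. The steps were tested on simulated data. The number of arrays limits the precision. Limma and the t-test took the 2 siRNAs as replicates, so their p-values rest only on the spread between the 2 knockdown arrays, which shared a slide.

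Named genes were all members, SMARCA4, and from each list, at most 5 genes that were measured on all arrays and lay at least 1.5-fold above NC, or at least 1.5-fold below it, in both knockdowns. The members and lists were chosen with earlier results of these data known. Alternatives were other scalings (quantile normalization, or the percentile over probes well above background), normexp with an offset of 50, no floor, the mean over probes, the series-level table, other filters, a 2-fold threshold, and for limma no trend, an unadjusted p or the methods' t-test. 1 listed gene and 1 probe sequence are not reported here.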

Additional observations from a re-analysis of the deposited data

How the results depend on the processing

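Of 103 fold changes of the mucin genes and SMARCA4 recomputed over 8 other settings, 100 moved by no more than the error of the spots (0.2 for MUC20, which has no error) and 3 by more. With normexp background correction, 0 mucin genes were at least 1.5-fold from NC in SMARCA4-KD1 in place of 1. There the log2 difference of MUC5AC was 0.45 in place of 1.19 and that of MUC20 in SMARCA4-KD2 was 0.01 in place of a limit of 0.50. With the mean over probes, MUC2 in SMARCA4-KD1 was 0.05 in place of 0.29, and in SMARCA4-KD2 it was 0.07 in place of -0.12, the only one of the 103 values to change sign. That mean includes the MUC2 probe A_33_P3412384, which passed the filter through the knockdown arrays alone and could hardly come out other than higher. The counts for SMARCA4-KD2 and for both knockdowns were 0 under every setting. No mucin gene was called by limma without the trend, at an unadjusted p or with the filter on all arrays, nor by the methods' t-test. After adjustment that t-test called none of all genes, so it could not single out the mucins. The share of all genes called without the trend is not given here. Over all genes, normexp gave 902 genes higher and 859 lower in both knockdowns in place of 1439 and 1816, and, by its own offset, fewer in SMARCA4-KD1 (1521 and 1355 in place of 2536 and 2760) and in SMARCA4-KD2 (1238 and 1013 in place of 2294 and 2209). Limma called 5174 of the 19504 genes measured on all arrays and 0 of all 22620, where the smallest adjusted p was 0.0939. Without a filter the median of all genes was -0.15 in both knockdowns. That median fell at the difference between the floors to which undetected values had been raised, so it is not a measured difference. Among the other genes named, normexp brought MET in SMARCA4-KD1 (-0.57), GCNT3 in both knockdowns (-0.42 and -0.29) and ERN2 in SMARCA4-KD2 (-0.18) under 1.5-fold. No paired analysis was possible because each group had 1 array. Leaving out a replicate was not possible for the same reason.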
